A study of Mus musculus with 11 samples.

Results

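The core and linker histone genes listed as protein coding were examined across 11 mouse RNA-seq libraries. The genes were taken by name from the deposited gene table. Fewer than 30 protein-coding genes carried an older symbol starting with Hist (8 were found), so the newer symbols were used (H1f, H2ac, H2bc, H3c and H4c followed by a number). That gave 60 genes among 21936 protein-coding and 55487 listed genes. They comprised 10 linker histone H1 genes, 14 H2A, 14 H2B, 12 H3 and 10 H4 genes.

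Replication-dependent histone genes supply the histones that package newly copied DNA, and they are transcribed mainly in S phase with the coactivator NPAT. Their mRNAs carry no poly(A) tail and end in a short conserved stem-loop, which is bound by the protein SLBP and is cut just downstream by a complex that contains the U7 small nuclear RNA. The genes are short, mostly lack introns, lie in dense clusters and encode near-identical proteins, whereas replacement histones are made throughout the cell cycle from polyadenylated mRNAs.

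The study lowered FGF21, a secreted hormone, in tumour cells and profiled the tumours and T cells sorted from them. The cells were MC38, a mouse colon carcinoma line, carrying a short hairpin RNA against Fgf21 (shFgf21) or a control hairpin (shNC). Libraries labelled as T cells sorted from such tumours comprised 2 shFgf21 libraries, with genotype labels of FGF21 knockdown and FGF22 knockdown, and 3 shNC libraries labelled WT. Libraries labelled as tumour, MC38 and mesenchymal cell comprised 3 shFgf21 libraries, labelled FGF21 knockdown, and 3 shNC libraries, labelled WT. The labels give neither the strain, age or number of the host mice nor whether the hairpin lines were clones. Sorted library titles list several joined numbers, which may mean pooled animals. No source says that the replicates are separate animals, and the p-values rest on the spread between libraries, part of which may be technical.

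Library totals ran from 14944013 to 19099350 counts, and with 0 counts the upper limit was 0.157 to 0.201 CPM (counts scaled by the library total) depending on the library. Fgf21 itself had 0 counts in all shFgf21 libraries and at most 2 in any shNC library, so the knockdown could not be checked. The sorted libraries held macrophage markers at a summed 16808 to 17893 CPM in shFgf21 and 11244 to 13651 CPM in shNC. Their T cell markers summed to only 310 to 363 CPM in shFgf21 and 278 to 582 CPM in shNC, so the sorted libraries held far more macrophage than T cell marker RNA. They also held 5 genes typical of MC38 and mesenchymal cells at 11291 to 13140 CPM in shFgf21 and 11279 to 12576 CPM in shNC, beside 15058 to 16644 CPM in shFgf21 and 16756 to 18734 CPM in shNC tumours. In the tumour libraries 10 T cell markers summed to 1.04 to 1.41 CPM in shFgf21 and 1.29 to 2.34 CPM in shNC, and Ptprc, which marks all leukocytes, did not exceed 1.002 CPM. Their epithelial markers summed to 2.18 to 4.85 CPM in shFgf21 and 3.07 to 7.02 CPM in shNC. In such bulk libraries fewer cells of a type and less RNA per cell cannot be told apart.

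The name rule reached beyond the replication-dependent genes. Of the 60 genes, 46 lay in the large cluster on chromosome 13 and 10 in the smaller cluster on chromosome 3, and 4 lay outside the clusters. These 4 were H1f0 and H1f10, replacement linker histones that are made outside S phase, H1f7, a linker histone of spermatids, and H1f8, a linker histone of oocytes. H1f6, H2ac1 and H2bc1 lie in the chromosome 13 cluster and are known from testis. No gene under the newer symbols stood for the further mouse clusters that the older symbols number 3 and 4.

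The stem-loop is shown first, because it sets these mRNAs apart from those that end in a poly(A) tail. The GENCODE M21 models of the same genome build (mm10) were searched after the stop codon for GG, a pair of any bases, CTT, any base, T, any base, AG, a pair of any bases and CC, in that order. The pattern occurred in 38 of the 60 models, against 80 of 58732 other coding transcripts (0.136%). It started 21 to 58 bases after the stop codon, with a median of 31. The forms below are from members named in the results and from H4c2, which is not discussed further. Capitals mark the 16 bases of the pattern, with 5 bases on either side.
H1f2: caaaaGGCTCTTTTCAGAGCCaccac
H2bc8: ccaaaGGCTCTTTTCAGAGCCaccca
H3c1: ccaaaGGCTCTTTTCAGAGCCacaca
H2bc12: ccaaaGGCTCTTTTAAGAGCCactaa
H2bc3: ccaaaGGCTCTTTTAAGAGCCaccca
H4c8: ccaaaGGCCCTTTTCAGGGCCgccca
H4c9: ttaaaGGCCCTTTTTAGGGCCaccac
H4c2: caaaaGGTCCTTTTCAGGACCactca

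The form carried by H1f2 was the most common, with 21 genes from H1, H2A, H2B and H3. The form carried by H2bc12 occurred in 6 genes of H1, H2B and H3. The 9 H4 models with the pattern used 4 other forms, shared with no other family. Of the 38 models, 18 ended within 100 bases of the stem-loop, a limit chosen for this grouping. They ran from 11 bases (H2ac4) to 74 bases (H3c3) past it, so they need not mark the mature mRNA end. The other 20 ran on further, by 840 bases in H1f2, 155 in H2bc8, 330 in H4c9 and 1861 in H2bc6, and 7 of these 20 held AATAAA, the usual poly(A) signal, in their last 50 bases. In 14 models the annotation stopped at the stop codon, so a stem-loop could not be looked for.

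The remaining 8 models had no stem-loop after the stop codon. They were the 4 genes outside the clusters, H1f1, H2bc4, H2bc21 and H3c13. H1f0, H1f10, H1f8 and H2bc21 held AATAAA near their ends, as did 40.6% of the other coding transcripts. The models of H1f1 and H3c13 held only 48 and 37 bases after the stop codon, fewer than the largest distance at which a stem-loop began. The absence of the letters says only that they were not in the annotated model.

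Promoters were searched in RefSeq sequence (GRCm38.p6), matched by symbol for 55 of the 60 genes, over 250 bases before the start and on both strands. The octamer ATTTGCAT, known as a binding site of the OCT1 factor in H2B promoters, stood before 6 of 14 H2A genes and 6 of 12 H2B genes and before no H1, H3 or H4 gene. Among 26970 other genes 1.57% held it. TATAAA was found for 24 of the 55 genes (43.6%) against 12.9% of the others, and CCAAT for 44 (80.0%) against 34.4%. The 9 divergent pairs, each an H2A and an H2B gene whose starts lie 175 to 305 bases apart, share much of these windows, so their matches are counted for both genes. Below are the 200 bases before the starts of H2bc8, which is paired with H2ac8, of H2bc12, which is paired with H2ac12, and of H1f2, which holds neither motif, with the octamer and TATAAA on either strand in capitals.
H2bc8, chr13:23571200-23571399, plus strand: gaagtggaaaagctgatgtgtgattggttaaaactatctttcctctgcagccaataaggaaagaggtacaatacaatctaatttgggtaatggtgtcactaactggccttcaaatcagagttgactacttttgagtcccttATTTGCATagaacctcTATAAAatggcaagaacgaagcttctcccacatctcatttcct
H2bc12, chr13:22035621-22035820, plus strand: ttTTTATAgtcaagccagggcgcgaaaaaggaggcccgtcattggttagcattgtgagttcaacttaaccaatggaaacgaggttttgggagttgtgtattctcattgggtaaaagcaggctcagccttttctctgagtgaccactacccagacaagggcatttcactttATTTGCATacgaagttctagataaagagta
H1f2, chr13:23738607-23738806, plus strand: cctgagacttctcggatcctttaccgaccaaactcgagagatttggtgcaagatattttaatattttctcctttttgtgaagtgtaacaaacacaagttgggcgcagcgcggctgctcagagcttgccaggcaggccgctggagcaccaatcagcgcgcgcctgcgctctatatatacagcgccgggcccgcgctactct

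The 60 genes took 0.129% ± 0.00178 of all counts in shFgf21 sorted libraries and 0.129% ± 0.00824 in shNC sorted libraries (SD, n = 2 and n = 3). In tumour libraries they took 0.196% ± 0.0102 in shFgf21 and 0.190% ± 0.0244 in shNC (SD, n = 3 each). A few genes held nearly all of this. Over the 11 libraries H1f0 alone gave 53.9% of the members' counts, H1f2 24.8%, H2bc4 7.13%, H1f10 5.35% and H2bc8 2.69%, together 93.9%. Of the 60 genes, 45 had counts in every library and 2 (H1f7 and H2ac1) had none in any.

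Per length the picture was as uneven. The deposited FPKM, a level per kilobase of gene length, had a median of 1.49 over the 60 genes, averaged over the 4 groups, against 0.801 over all protein-coding genes. Only 7 genes exceeded 10 FPKM, namely H1f0 at 418, H1f2 at 260.4, H2bc4 at 99.7, H1f10 at 70.0, H2bc8 at 69.2, H4c9 at 19.3 and H2ac18 at 11.6. The other 53 were under 5 FPKM, and 21 of these were under 1 FPKM. The length behind the FPKM matched the GENCODE model in 50 of the 53 genes where it could be worked out. For H1f8, H2bc6 and H3c14 it was longer than the longest coding model, so their FPKM values are lower than that model would give.

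**Figure D1:**
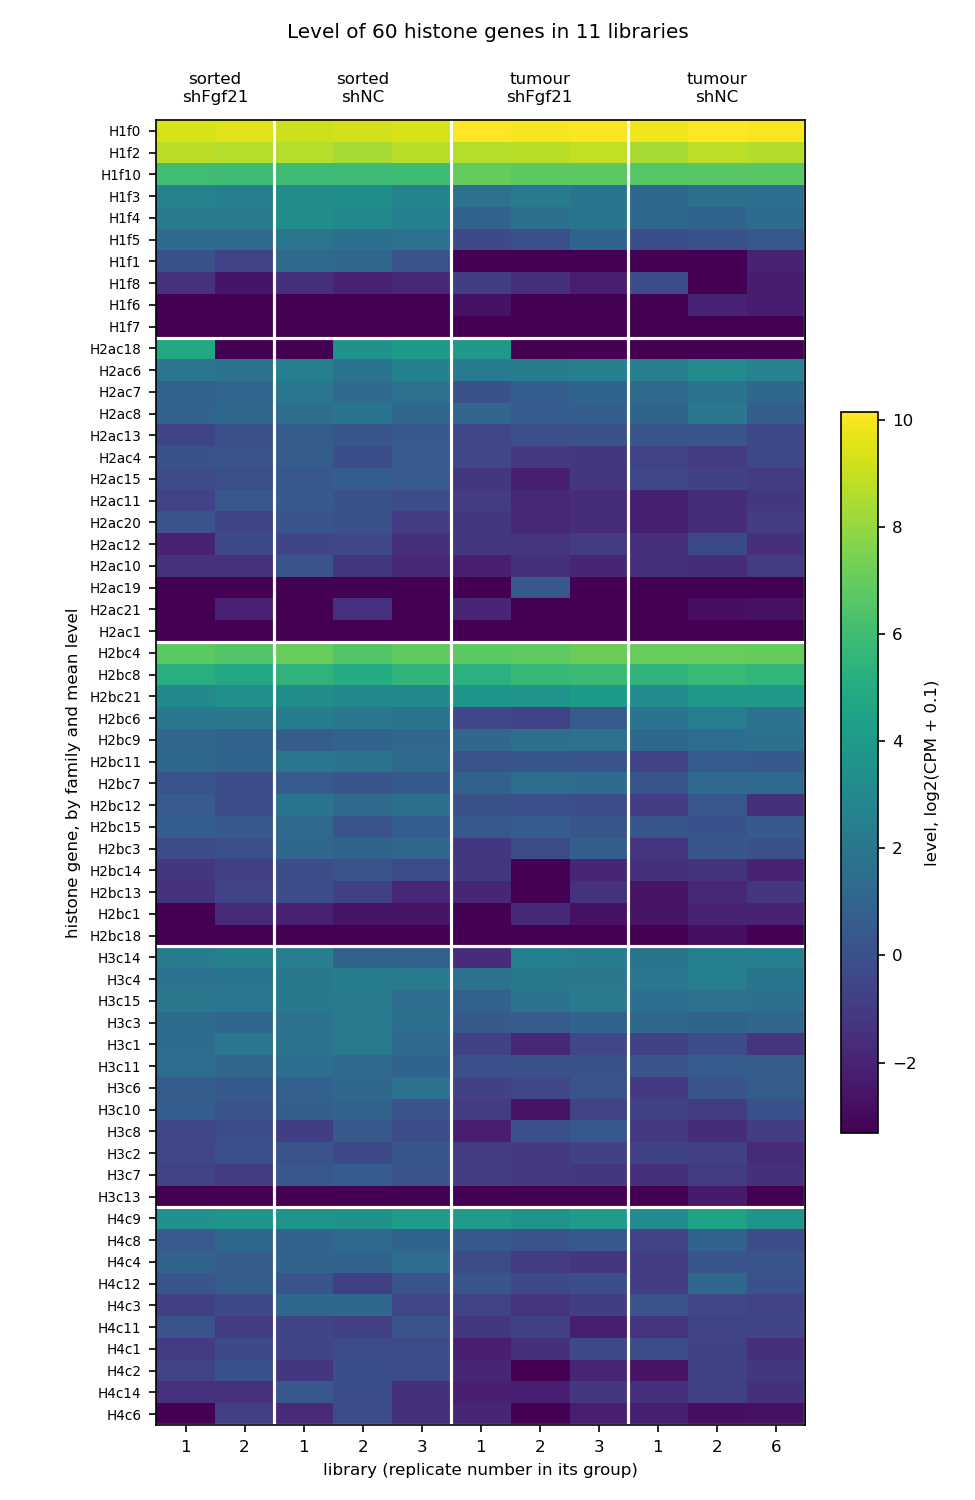
Level of each of the 60 histone genes (rows, by family and by mean level within it) in each of the 11 libraries (columns, by group), as log2 of CPM plus 0.1. H1f0, H1f2, H1f10, H2bc4 and H2bc8 are high in every library, H1f1 is lower in the tumour libraries, and H2ac18 is high in 4 libraries and at 0 in 7.

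Among linker histones, H1f0 (chr15:79028450-79030504) and H1f2 (chr13:23738808-23740367) were the most abundant. H1f0 had 643 and 732 CPM in shFgf21 sorted libraries, against 561, 608 and 644 CPM in shNC ones. Tumour libraries had 1146, 1023 and 1074 CPM of H1f0 in shFgf21 and 935, 1117 and 1051 CPM in shNC. Every tumour library lay above every sorted library, and shFgf21 and shNC overlapped in both kinds of sample. H1f2, a somatic linker histone of the cluster, averaged 418 ± 25.2 CPM in shFgf21 and 389 ± 47.6 CPM in shNC sorted libraries, and 434 ± 42.2 CPM in shFgf21 and 391 ± 60.65 CPM in shNC tumour libraries (SD). All 4 groups of H1f2 overlapped.

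H2A mRNA levels were low. H2ac6 (chr13:23681467-23683948) led the evenly detected members, at 3.73 ± 0.445 CPM in shFgf21 and 5.03 ± 1.29 CPM in shNC sorted libraries, and 5.09 ± 0.606 CPM in shFgf21 and 6.86 ± 1.90 CPM in shNC tumours (SD). H2ac18 (chr3:96245497-96246082) had a higher mean but was all or none. It had 392 and 0 counts in shFgf21 sorted, 0, 172 and 263 in shNC sorted, 270, 0 and 0 in shFgf21 tumour and 0, 0 and 0 in shNC tumour libraries. The 4 libraries with H2ac18 counts were not those of 1 group, and they were also the 4 with counts of Gm20634, an overlapping transcript on the same strand. H2ac18 shares 88.3% of its 100-base windows with other genes, chiefly Gm20634, so its counts and those of its near copy H2ac19 and of H3c14, which shares all of its windows, are uncertain.

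In H2B, H2bc4 (chr13:23684199-23692908) averaged 99.6 ± 14.5 CPM in shFgf21 and 112 ± 20.1 CPM in shNC sorted libraries, and 119.8 ± 16.5 CPM in shFgf21 and 129 ± 2.41 CPM in shNC tumours (SD). H2bc8 (chr13:23571396-23572013) averaged 31.4 ± 5.37 CPM in shFgf21 and 40.4 ± 6.75 CPM in shNC sorted libraries, and 49.99 ± 9.88 CPM in shFgf21 and 48.3 ± 5.72 CPM in shNC tumours. Both genes start close to a divergently transcribed H2A gene that was far lower. H2bc8 had 69.2 FPKM and H2ac8, with its start 175 bases away, 3.2 FPKM, while H2bc4 had 99.7 FPKM and H2ac6, 250 bases away, 2.10 FPKM. In the other 7 pairs neither gene exceeded 4.44 FPKM.

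H3 and H4 genes were low apart from H4c9. H3c4 (chr13:23575763-23577011) averaged 3.545 ± 0.101 CPM in shFgf21 and 4.51 ± 0.355 CPM in shNC sorted libraries, and 3.84 ± 0.572 CPM in shFgf21 and 4.36 ± 1.02 CPM in shNC tumours (SD). H3c14 (chr3:96246685-96248509) ranged from 0.23 to 5.94 CPM, with 4 counts in shFgf21 tumour replicate 1 and 26 to 115 in the other 10 libraries. H4c9 (chr13:22040636-22041362) averaged 12.2 ± 1.44 CPM in shFgf21 and 14.02 ± 2.74 CPM in shNC sorted libraries, and 15.5 ± 2.70 CPM in shFgf21 and 14.6 ± 6.765 CPM in shNC tumours. H4c8 (chr13:23531050-23531519) did not exceed 2.32 CPM in any library. The testis members were at or near 0, with no count of H2ac1 anywhere, no H1f6 in sorted libraries and at most 0.205 CPM of H2bc1.

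Among the 60 genes 49 shared at least one 100-base window with another gene, and 18 shared more than 50% of their windows. How the authors' counting treated reads that fit several genes, and whether it used strand, is not given in the sources used here. Single H2A, H2B, H3 and H4 members are uncertain for that reason. Among the members that shared no window were H1f0, H1f1, H1f5, H1f10, H2bc21 and H4c4. Sharing no window does not remove the question of strand, as 22 members overlapped another listed gene. H1f10 overlapped the antisense gene Gm5577 over 755 bases, and H1f0 overlapped the antisense gene Gm49544 over 163 bases.

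Whether shFgf21 tumours gave sorted cells with other histone mRNA levels was asked first. No histone gene passed the threshold, but most values were lower in shFgf21. Of the 47 members tested, 36 had a log2 fold change below 0 and 11 above 0, with a median of -0.36, whereas 8516 of all 16454 genes tested were below 0 and the median was -0.01. By edgeR's quasi-likelihood test with Benjamini-Hochberg adjustment over all genes, 0 members were called at an adjusted p of 0.05, against 0.079% of all genes (0.0182% higher and 0.0608% lower). At an unadjusted p under 0.05 there were 8 members and 1842 of all genes. The DESeq2 test called 0 members too, against 1.66% of all genes (246 of 14855).

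The lower values were found mostly in the chromosome 13 cluster, which held 39 of the 47 members tested. There 34 of 39 were below 0 (median -0.39), against 2 of 6 in the chromosome 3 cluster (median 0.06). Those 6 are few and include H2ac18 and H3c14, whose counts are uncertain, so the clusters cannot be set apart firmly. In 18 of the 47 members both shFgf21 libraries lay below all 3 shNC libraries, while 13.2% of all genes tested did so, and in 2 members they lay above, against 16.6% of all genes. All 18 were in the chromosome 13 cluster, where most of the members tested lie. By family the medians were -0.41 for 7 H1, -0.45 for 9 H2A, -0.39 for 11 H2B, -0.20 for 11 H3 and -0.23 for 9 H4 genes. Non-overlap in either direction covered 29.8% of all genes. Without the shFgf21 library labelled FGF22 knockdown, 38 of 50 members were below 0 with a median of -0.41. With only genes at a mean of at least 5 CPM, 10 members were left and the median was -0.09.

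Among genes at 1 CPM or more in some group, the smallest p-values belonged to a pair of H2B genes and a linker histone. H2bc12 (chr13:22035870-22036345) had 1.35 and 0.82 CPM in shFgf21 sorted libraries, against 3.64, 2.39 and 2.997 CPM in shNC ones. The groups did not overlap, and the log2 fold change was -1.49 ± 0.36 (SE; edgeR, adjusted p = 0.250). H2bc3 (chr13:23746734-23747241) was at 0.78 and 0.89 CPM in shFgf21 and at 2.29, 1.97 and 2.06 CPM in shNC libraries, again without overlap, a log2 fold change of -1.35 ± 0.34 (edgeR, adjusted p = 0.262). H1f4 (chr13:23620629-23622558), a somatic linker histone, was at 4.47 and 4.78 CPM in shFgf21 and at 9.91, 7.72 and 5.62 CPM in shNC libraries, a log2 fold change of -0.76 ± 0.27 (edgeR, adjusted p = 0.364). None of these passed the threshold with any 1 library left out, the lowest adjusted p over these fits being 0.218 for H1f4, 0.279 for H2bc12 and 0.295 for H2bc3.

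Above 0, the smallest p-values were those of H3c14 at 0.85 ± 0.47, H1f0 at 0.17 ± 0.11 and H4c12 at 0.59 ± 0.45 (log2 fold change and SE), none past the threshold. The most abundant members differed little. H1f2 had a log2 fold change of 0.08 ± 0.12, H2bc4 -0.19 ± 0.17, H2bc8 -0.39 ± 0.18 and H4c9 -0.23 ± 0.19, all at an edgeR adjusted p of at least 0.471.

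Because the abundant genes dominate any sum, the 51 cluster genes other than H1f2, H2bc4, H2bc8, H2ac18 and H2ac19 were summed, a set trimmed with the values known. The sum was 85.0 and 88.5 CPM in shFgf21 sorted libraries and 126.5, 112.9 and 105.0 CPM in shNC sorted libraries. Both shFgf21 libraries lay below all shNC libraries. In tumours it was 72.1, 78.6 and 96.7 CPM in shFgf21 and 67.9, 117 and 91.6 CPM in shNC, with overlap. Untrimmed, all 56 cluster members summed to 647.8 and 556.9 CPM in shFgf21 sorted libraries. In shNC sorted libraries that untrimmed sum was 692.3, 560.8 and 683.4 CPM, with overlap. The 12 macrophage markers were higher in both shFgf21 sorted libraries than in any shNC sorted library, by the ranges given above. The 5 neutrophil markers were lower, at 56.4 to 63.1 CPM in shFgf21 and 74.4 to 143 CPM in shNC, as were the 5 epithelial markers, at 14.8 to 17.1 CPM in shFgf21 and 29.4 to 41.7 CPM in shNC. The part of these cell types in the histone values was not tested.

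**Figure D2:**
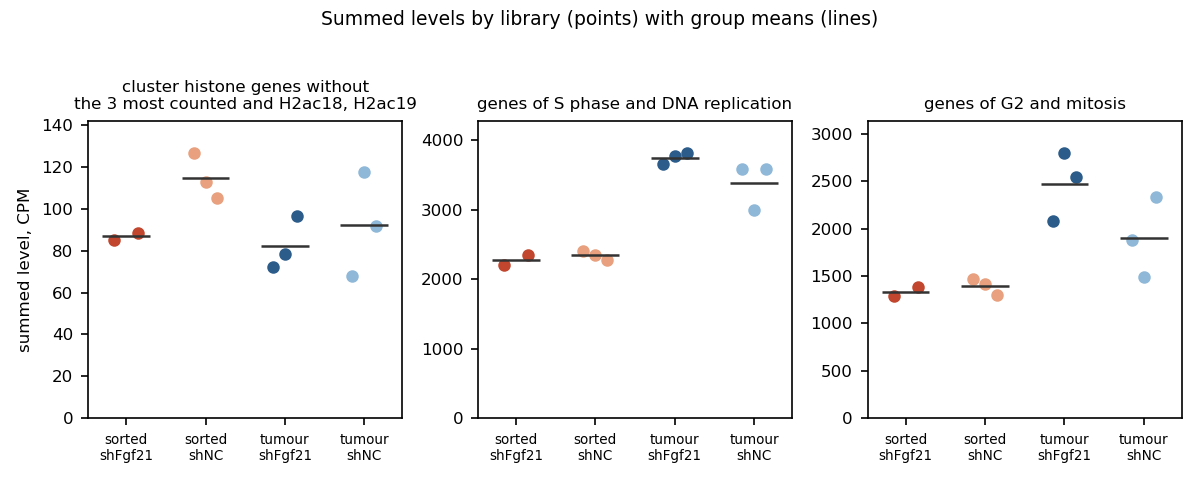
Summed level in CPM of 51 cluster histone genes (left), of 25 genes of S phase and DNA replication (middle) and of 12 genes of G2 and mitosis (right) in each library (points), with group means (lines). The histone sum leaves out H1f2, H2bc4, H2bc8, H2ac18 and H2ac19. In sorted libraries it is 85.0 and 88.5 CPM in shFgf21, below the 3 shNC libraries, while the other sums overlap. In tumours all 3 sums overlap between shFgf21 and shNC except the S phase genes.

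In the lists of genes around histone supply 0 genes passed the threshold in sorted cells. Of 25 S phase and replication genes, 16 were above 0 and 9 below (median 0.02). Their sum was 2206 and 2343 CPM in shFgf21 and 2405, 2349.8 and 2280.0 CPM in shNC sorted libraries, with overlap. Cdc6, which loads the replicative helicase, had the smallest p with a log2 fold change of -0.39 ± 0.16 (edgeR, adjusted p = 0.412), and E2f1, an activator of S phase genes, was at 0.20 ± 0.11 (adjusted p = 0.572). Of 12 histone mRNA processing genes, 9 were below 0 with a median of -0.10. Their sum, scaled by library totals, was 525 to 535 CPM in shFgf21 and 554 to 604 CPM in shNC. Npat, the coactivator of histone gene transcription, was at -0.30 ± 0.17 and Clp1, a subunit of the cleavage machinery, at -0.79 ± 0.46 (log2 fold change and SE). The median was -0.03 for 18 histone chaperone and import genes, 0.08 for 11 replacement and variant histones and -0.03 for 12 G2 and mitosis genes. The smallest p-values there were those of Asf1a at -0.29 ± 0.14, Ubn1 at 0.19 ± 0.12, H2aj at 0.28 ± 0.12, H1f0 as given above, Aurka at -0.15 ± 0.15 and Mki67 at -0.11 ± 0.11. The chaperone sum, by library totals, was 1611 to 1662 CPM in shFgf21 and 1674 to 1780.4 CPM in shNC. On that scale the processing and chaperone sums were lower in shFgf21 without overlap. They lack the TMM scaling used in the tests, so this order may not hold on the scale of the tests.

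Tumour libraries were compared in the same way, and there the histone genes showed no common direction. Of 31 members tested, 16 were above 0 and 15 below, with a median of 0.02, beside -0.01 over 14950 genes. By edgeR 0 members were called, against 0.0334% of all genes (0.0268% higher and 0.00669% lower), with 2 members and 930 of all genes at an unadjusted p under 0.05. DESeq2 called 1 member, H2bc6, against 0.77% of all genes (115 of 14936). All 6 H1 genes tested were above 0 (median 0.21), and all 5 H2A genes were below 0 (median -0.44), while 7 of 10 H2B, 1 of 6 H3 and 2 of 4 H4 genes were above 0. The median over the members was below 0 in 8 of 13 alternatives, among them -0.21 without a filter on low counts, which tested 58 members, and -0.24 without shFgf21 tumour replicate 3.

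H2bc6 (chr13:23583670-23621124) had the largest difference. It had 0.64, 0.56 and 1.44 CPM in shFgf21 tumours, against 3.44, 5.39 and 3.37 CPM in shNC ones. The groups did not overlap, and the log2 fold change was -2.20 ± 0.42 (SE; edgeR, adjusted p = 0.297). The DESeq2 Wald test gave -2.20 with an adjusted p of 0.00166, and a fit of all 4 groups gave -2.20 with an adjusted p of 0.0421 in edgeR. Sorted libraries had 4.11 and 3.96 CPM of H2bc6 in shFgf21 and 4.92, 4.14 and 3.68 CPM in shNC, with overlap. The listed gene spans 37455 bases and overlaps H1f4 over 496 bases and the pseudogene Gm11398 over 320 bases, both on the same strand.

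H2ac7 (chr13:23574381-23574952) had 0.93, 1.55 and 1.96 CPM in shFgf21 and 2.40, 3.42 and 2.26 CPM in shNC tumours, without overlap (log2 fold change -0.87 ± 0.36; edgeR, adjusted p = 0.783). H2ac6 was at -0.44 ± 0.26 (adjusted p = 0.870 by edgeR). Above 0 the smallest p-values were those of H1f3 at 0.46 ± 0.27, H1f10 at 0.20 ± 0.12 and H1f4 at 0.34 ± 0.33, none past the threshold. Groups did not overlap in 4 members that were lower and 2 that were higher, against 5.9% and 5.86% of all genes tested, 11.8% in either direction.

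The cell cycle lists in tumours lay mostly above 0. Of 12 G2 and mitosis genes all 12 were above 0 with a median of 0.44, and 0 passed the threshold. The S phase genes summed to 3656 to 3809 CPM in shFgf21 and 2998 to 3582 CPM in shNC tumours, without overlap. Birc5, a chromosomal passenger protein, was at 104 ± 6.71 CPM in shFgf21 and 70.3 ± 12.1 CPM in shNC tumours (SD), with a log2 fold change of 0.55 ± 0.16 (edgeR, adjusted p = 0.594), and Aurkb, its kinase partner, was at 0.46 ± 0.14. Of 25 S phase genes 23 were above 0 (median 0.16), with Cdc45 at 0.42 ± 0.14 and Cdk2 at 0.44 ± 0.18 and 0 past the threshold. In the other lists 0 genes passed, the smallest p-values being those of Clp1 at -0.93 ± 0.38, Npat at 0.21 ± 0.20, Daxx at -0.43 ± 0.16, Ipo4 at -0.29 ± 0.12, H2az1 at 0.65 ± 0.27 and H2ax at 0.31 ± 0.15.

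**Figure D3:**
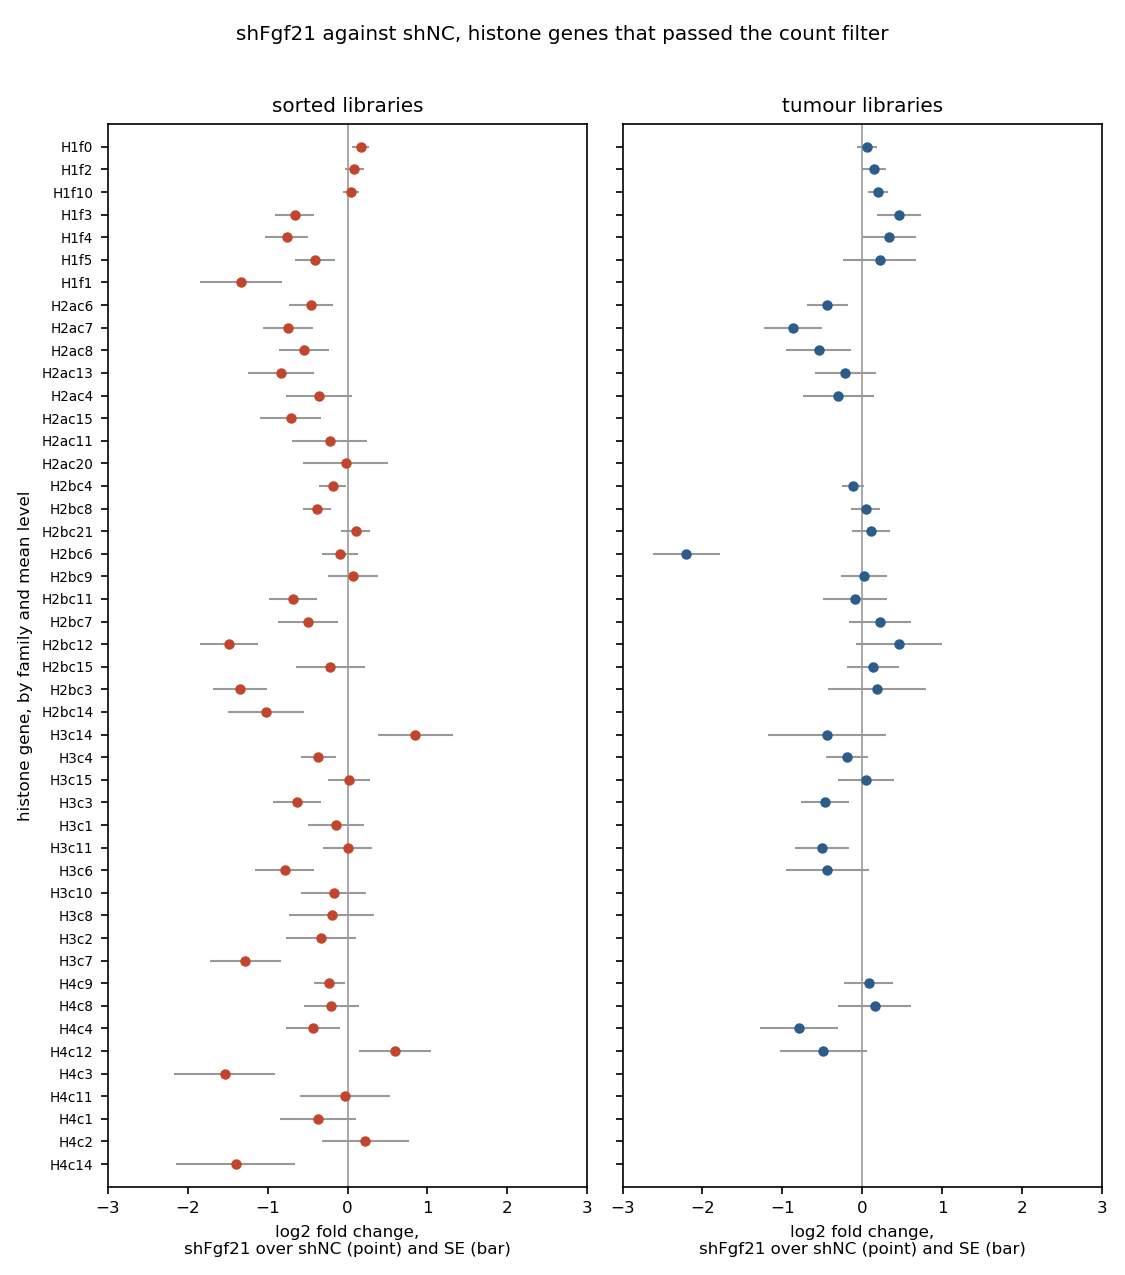
Log2 fold change of shFgf21 over shNC (points) with its standard error (bars) for the histone genes tested in sorted libraries (left) and tumour libraries (right), by family and mean level. H2ac18, whose counts were all or none, is left out. In sorted libraries 36 of 47 genes tested lie below 0, in tumour libraries 15 of 31, and H2bc6 lies at -2.20 in tumours.

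The difference between these knockdown effects, sorted minus tumour, was tested as an interaction over 48 members. By edgeR 0 members were called, against 0.00577% of all genes, with 5 members and 826 of all genes at an unadjusted p under 0.05. DESeq2 called 0 members, against 0.202% of all genes. Among genes at 1 CPM or more the smallest p was that of H2bc6, with a difference of 2.12 ± 0.50 on the log2 scale (SE; edgeR, adjusted p = 0.668). Below 0 they were H1f3 at -1.11 ± 0.37, H2bc12 at -1.93 ± 0.71 and H1f4 at -1.09 ± 0.44, and above 0 after H2bc6 they were H4c12 at 1.10 ± 0.78 and H3c14 at 1.31 ± 1.06, none past the threshold. Of the lists around the histone genes 0 genes passed, the smallest p in each belonging to Aurkb, Cdc6, Ipo4, Npat, H2az1 and Rn7sk. A difference in the knockdown effect was therefore not detectable for any histone gene at this depth and number of libraries.

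Sorted libraries were next set against tumour libraries over both hairpins. Of 40 genes tested in the chromosome 13 cluster, 20 were called higher in sorted libraries and 3 lower, and of 6 in the chromosome 3 cluster 1 was called in each direction. H1f0, H1f10 and H2bc8 were lower, and H1f2 and H2bc4 did not pass the test. Of 48 members tested, edgeR called 27 at an adjusted p of 0.05, against 49.0% of all 17327 genes. Of these, 21 were higher, against 26.7% of all genes, and 6 were lower, against 22.3%. The median log2 fold change was 0.78 over the members and -0.01 over all genes. As shares of the members tested these are 56.2% called, 43.8% higher and 12.5% lower. The count filter can admit a gene through the sorted libraries alone, where it is high, and in tumour libraries alone it kept 31 members. Without a filter 58 members were tested, 40 above 0 and 18 below, with a median of 0.71. Of these, 21 were called higher and 5 lower, against 5238 and 3346 of all 33062 genes, whose median was 0.13. Macrophage markers were far higher in the sorted libraries, at 11244 to 17893 CPM against 36.7 to 50.8 CPM in tumours, and their part in these values was not tested. With only genes at a mean of at least 5 CPM, 10 members remained, of which 1 was called higher, against 28.0% of all genes under that filter, and 4 lower, against 25.6%, with a median of -0.30.

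H3c1 (chr13:23761853-23762386), an H3 gene, had the smallest p of those that rose. It had 2.62 and 3.75 CPM in shFgf21 sorted and 3.44, 4.70 and 2.31 CPM in shNC sorted libraries, against 0.52, 0.19 and 0.64 CPM in shFgf21 tumours and 0.52, 0.82 and 0.30 CPM in shNC tumours. Every sorted library lay above every tumour library, and the log2 fold change was 2.72 ± 0.34 (SE; edgeR, adjusted p = 4.79e-05). H1f1 (chr13:23763666-23764406), another linker histone of the cluster, had 103 counts over the 5 sorted libraries and 3 over the 6 tumour libraries, all 3 in shNC tumour replicate 6. Per listed count the ratio was 44.5, with an exact 95% interval of 14.8 to 219 for counting error alone (edgeR, adjusted p = 2.04e-04).

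The somatic linker histones of the cluster shared this direction except for H1f2. H1f3 (chr13:23553262-23560686) had 6.17 and 5.32 CPM in shFgf21 sorted and 10.04, 10.39 and 6.56 CPM in shNC sorted libraries, against 3.24, 4.48 and 3.64 CPM in shFgf21 tumours and 2.14, 3.08 and 2.97 CPM in shNC tumours. The sorted and tumour libraries did not overlap, and the log2 fold change was 1.16 ± 0.18 (edgeR, adjusted p = 2.46e-04). H1f4 rose by 1.23 ± 0.22 and H1f5 (chr13:21779883-21780625) by 1.43 ± 0.27, both without overlap. In the shFgf21 libraries alone neither passed, at 0.71 for H1f4 (adjusted p = 0.128 by edgeR) and 1.15 for H1f5 (adjusted p = 0.0837 by edgeR). H1f2 was at -0.03 ± 0.10 (edgeR, adjusted p = 0.843).

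Each core histone family held some genes called higher, though in H2B as many were called lower. H2ac11 rose by 1.81 ± 0.38 and H2ac15 by 1.47 ± 0.32 on the log2 scale, both low genes with group means up to 1.002 and 1.355 CPM. In tumour libraries they did not exceed 0.405 and 0.65 CPM. H2bc11 (chr13:22043214-22043676) averaged 2.05 ± 0.203 CPM in shFgf21 and 3.26 ± 0.724 CPM in shNC sorted libraries, against 1.05 ± 0.0684 CPM in shFgf21 and 1.10 ± 0.445 CPM in shNC tumours (SD), a rise of 1.26 ± 0.25. H2bc12 rose by 1.28 ± 0.35, H3c10 by 1.54 ± 0.41 and H4c4 by 1.48 ± 0.31 (log2 fold change and SE). H2ac15 did not pass in the shFgf21 libraries alone (1.60, adjusted p = 0.0527 by edgeR), nor H3c10 in the shNC libraries alone (1.201, adjusted p = 0.0684 by edgeR). H2bc12 was past the threshold in the shNC libraries and not in the shFgf21 libraries (0.34, adjusted p = 0.554 by edgeR), and without shFgf21 sorted replicate 1 its adjusted p was 0.0638. H4c8, at 0.78 ± 0.31, did not pass (adjusted p = 0.0531 by edgeR) and passed without shFgf21 sorted replicate 1 (0.0487) or shNC tumour replicate 2 (0.00415). H2ac6, at -0.45 ± 0.20 (adjusted p = 0.0779 by edgeR), passed without shNC tumour replicate 1 (0.0475). H2ac18, at 5.85 ± 2.42 (adjusted p = 0.0711 by edgeR), passed without shFgf21 tumour replicate 1, its only tumour library with counts (0.0169), and without shNC sorted replicate 1 (0.0498) or shFgf21 sorted replicate 2 (0.0478), which had none.

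The 6 genes that fell were H1f10, H1f0 and 4 H2B genes. H1f10 (chr6:87980421-87981637) averaged 64.3 ± 0.560 CPM in shFgf21 and 61.5 ± 0.753 CPM in shNC sorted libraries, against 114 ± 9.98 CPM in shFgf21 and 98.6 ± 1.82 CPM in shNC tumours (SD), a log2 fold change of -0.75 ± 0.07 (edgeR, adjusted p = 4.71e-06). H1f0 fell by 0.71 ± 0.08 (adjusted p = 2.66e-05 by edgeR). H2bc7 (chr13:23573736-23574196) fell by 1.01 ± 0.28, H2bc21 (chr3:96221119-96223738) by 0.56 ± 0.16, H2bc9 by 0.52 ± 0.20 and H2bc8 by 0.46 ± 0.14, all with overlapping groups. These 4 calls were close to the threshold. In the shNC libraries alone none of the 4 passed (edgeR adjusted p = 0.273 for H2bc8, 0.249 for H2bc7, 0.117 for H2bc21 and 0.176 for H2bc9). In the shFgf21 libraries alone H2bc21 (0.0773) and H2bc9 (0.297) did not pass by edgeR. H2bc9 also lost its call with DESeq2, without a filter and with median-ratio size factors. H2bc8 and H2bc7 lost theirs without shFgf21 sorted replicate 2 (adjusted p = 0.0842 and 0.0532), H2bc21 without shFgf21 sorted replicate 1 (0.0693), and H2bc9, at an adjusted p of 0.0491, without any of 9 libraries (up to 0.150), the exceptions being shFgf21 tumour replicate 1 and shNC tumour replicate 1.

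Groups did not overlap in 15 members that were higher in sorted libraries and 2 that were lower, against 20.0% and 12.7% of all genes tested, 32.7% in either direction. All 15 lay in the chromosome 13 cluster, which held 40 of the 48 members tested, and the 2 were H1f0 and H1f10. By family, 4 of 7 H1, 4 of 10 H2A, 4 of 11 H2B, 7 of 11 H3 and 2 of 9 H4 genes tested were called higher, against 26.7% of all genes. Called lower were 2 of the H1 and 4 of the H2B genes, against 22.3% of all genes. Grouped by the annotated end of the model, of 16 tested genes whose model ends within 100 bases of the stem-loop 10 were called higher and 1 lower (median 1.19), and of 8 whose model ends at the stop codon 4 were called higher and 0 lower (median 0.76). Of 19 whose model runs on past the stem-loop 6 were called higher and 2 lower (median 0.55), and of 5 with no stem-loop 1 (H1f1) was called higher and 3 lower (median -0.56). The last class holds H1f0, H1f10 and H2bc4, which are among the most abundant members. Level and the end of the model were not separated.

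**Figure D4:**
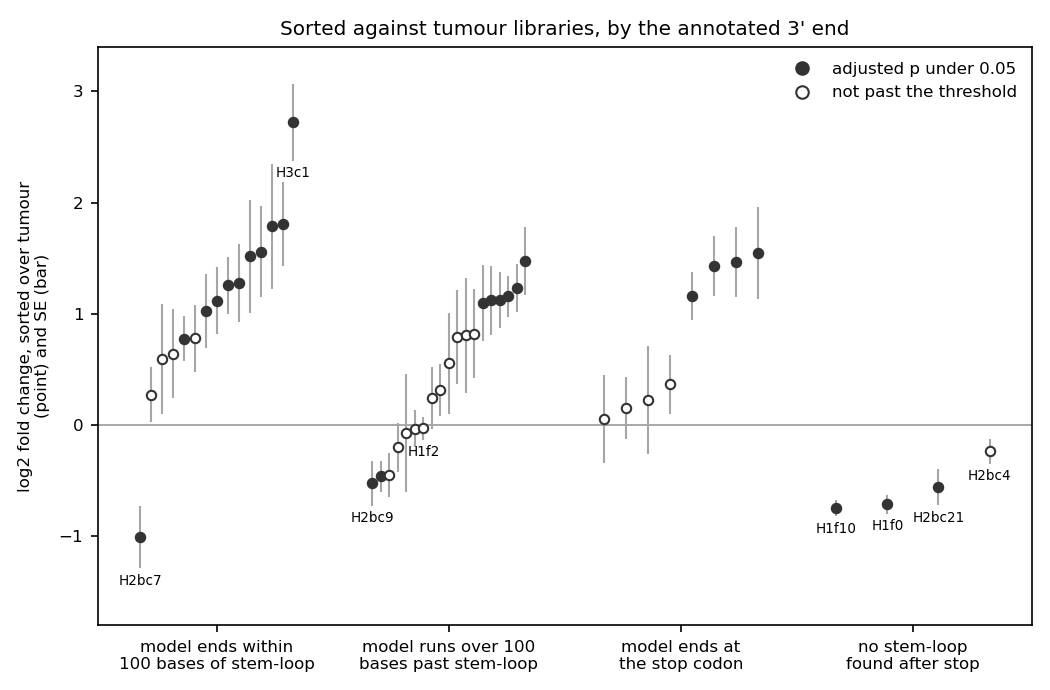
Log2 fold change of sorted over tumour libraries (points) with its standard error (bars) for the histone genes tested, grouped by how the annotated transcript model ends and sorted by value within each group. H1f1 and H2ac18 are left out because of their zeros. H3c1 lies highest at 2.72 and H2bc7 lowest at -1.01. The 4 genes shown without a stem-loop lie below 0, while H1f1, also without one, was called higher.

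Within divergent pairs the H2A and H2B genes did not always go together. H2ac11 and H2bc11 were both higher in sorted libraries (1.81 and 1.26). H2ac20 was at 1.56 and its partner H2bc21 at -0.56, both past the threshold and in opposite directions, and H2ac7 was at 0.27, not past it, and H2bc7 at -1.01. H2ac20 was chosen after its values were seen.

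Many cell cycle genes were lower in sorted libraries, where 22.3% of all genes were called lower and 26.7% higher. Of 25 S phase and replication genes 15 were lower in sorted libraries, 0 were higher and the median was -0.35, and of 12 G2 and mitosis genes 9 were lower, 0 higher and the median was -0.45. Mcm7, a helicase subunit, averaged 142 ± 6.49 CPM in shFgf21 and 149 ± 2.02 CPM in shNC sorted libraries, against 220.0 ± 11.8 CPM in shFgf21 and 216 ± 5.78 CPM in shNC tumours (SD), a log2 fold change of -0.59 ± 0.07 (edgeR, adjusted p = 2.19e-05). Cdc45 was at -0.67 ± 0.09, Mcm6 at -0.64 ± 0.08 and Pole, a replicative polymerase, at -0.66 ± 0.09, and in mitosis Cdc20 was at -0.52 ± 0.09, Top2a at -0.75 ± 0.14, Ccnb1 at -0.80 ± 0.17 and Cdk1 at -0.44 ± 0.10, all past the threshold.

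Of 12 histone mRNA processing genes 4 were lower and 0 higher, against 22.3% of all genes lower. Slbp, which binds the stem-loop, averaged 61.6 ± 0.0449 CPM in shFgf21 and 66.1 ± 4.96 CPM in shNC sorted libraries, against 74.5 ± 7.44 CPM in shFgf21 and 75.1 ± 6.64 CPM in shNC tumours (SD), a log2 fold change of -0.23 ± 0.09 (edgeR, adjusted p = 0.0447). Eri1, an exonuclease that trims histone mRNA ends, was at -0.37 ± 0.10, and the cleavage factors Cstf2 and Cpsf2 were at -0.53 ± 0.10 and -0.37 ± 0.08. Of 18 chaperone and import genes 10 were lower, against the same 22.3%, among them Nap1l1 at -0.55 ± 0.08, Rbbp4 at -0.46 ± 0.07 and Hira at -0.44 ± 0.07, and 1 was higher, Daxx, a chaperone of the replacement histone H3.3, at 0.82 ± 0.10. Of 11 replacement and variant histones, H1f0 and H1f10 included, 6 were lower and 3 higher, against 22.3% and 26.7% of all genes. Macroh2a2 was at -0.84 ± 0.12 and Macroh2a1, another macroH2A variant, at 0.64 ± 0.10.

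RNAs that carry no poly(A) tail were scarce in every library. The 6 such genes in the table summed to 2.22 to 3.74 CPM in shFgf21 and 3.42 to 5.89 CPM in shNC sorted libraries, and to 1.10 to 3.18 CPM in shFgf21 and 1.14 to 4.61 CPM in shNC tumours. Rn7sk, the 7SK RNA that is abundant in mammalian nuclei, averaged 2.14 ± 1.68 CPM in shFgf21 and 3.53 ± 0.873 CPM in shNC sorted libraries, against 0.800 ± 0.609 CPM in shFgf21 and 2.26 ± 1.18 CPM in shNC tumours (SD). It did not pass the threshold between sorted and tumour libraries (log2 fold change 1.02 ± 0.44; edgeR, adjusted p = 0.0763), within sorted libraries (-0.74 ± 0.49) or within tumours (-1.50 ± 0.60). Rpph1, the RNA of ribonuclease P, was at 0.81 ± 0.60 between the kinds of sample. The labels call the molecule total RNA, and whether the libraries were made by poly(A) selection is not given in the sources used here. The part of RNA selection in the histone values was not tested.

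**Figure D5:**
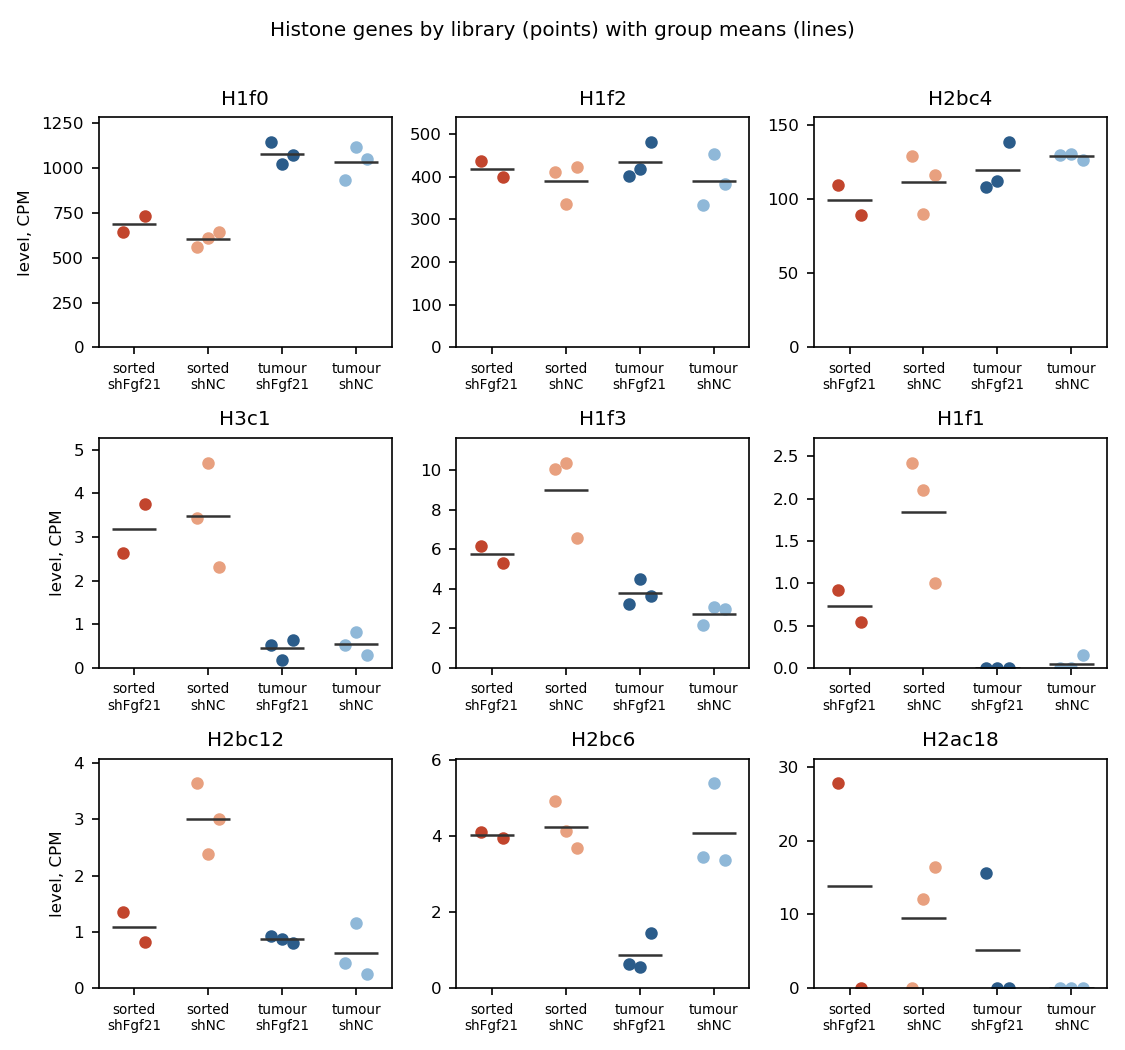
Level in CPM of 9 histone genes in each library (points) with group means (lines), on axes that start at 0. H1f0 is higher in all tumour libraries, H3c1, H1f3 and H1f1 are higher in all sorted libraries, H2bc12 is lower in shFgf21 than in shNC sorted libraries, H2bc6 is lower in shFgf21 than in shNC tumours, and H2ac18 is present in 4 libraries only.

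The 8 protein-coding genes that the table still lists under older Hist symbols were not members and lie in the same chromosome 13 cluster. Between sorted and tumour libraries their log2 fold changes ran from -0.03 to 1.19, with 2 called higher, against 26.7% of all genes, and 0 lower. Their summed level was 13.04 to 15.1 CPM in shFgf21 and 21.5 to 23.2 CPM in shNC sorted libraries, and 11.5 to 16.6 CPM in shFgf21 and 14.2 to 26.3 CPM in shNC tumours. Within sorted libraries both shFgf21 values of this sum were below all shNC values. Gene by gene, scaled by library totals, that held in 4 of the 8 (Hist1h2ao, Hist1h2bp, Hist1h2bq and Hist1h2br), and the groups overlapped in the other 4. Of all genes 13.2% did so on the TMM scale, so these shares are not on the same scale.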

How the data were processed

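RNA-seq gene counts of 11 libraries were analysed as the authors deposited them. Deposited FPKM values equalled count over a fixed length and the library total (largest deviation in implied length 8.44e-04%) and served only to compare genes per length. The submitters' processing notes name mm10. Aligner, counter, annotation and strandedness were not given in the sources used here. Groups follow the sample titles.

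Counts were filtered by filterByExpr, scaled by TMM and tested with edgeR 4.0.16 in R 4.3.3 (quasi-likelihood F-test, Benjamini-Hochberg over all genes tested, threshold 0.05), after a check on simulated counts. Knockdown was tested within each kind of sample. Sorted against tumour, and the interaction, used all 4 groups. Printed CPM use TMM over 11 libraries, while summed levels use library totals. The SE is the fold change over the square root of F. A count of 0 allows 3 counts (counting error only). No replicate pair agreed within sampling noise (chi-square of at least 12.3 per gene).

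Named members were the 2 highest by mean CPM per family, for each comparison up to 10 called per direction by fold among those at 1 CPM or more, filled to 3 by smallest p, and the testis members. Up to 4 called genes, or else the 2 with the smallest p, stand for each other list. The members and lists were chosen with earlier results of these data known. Alternatives were DESeq2 1.42.0, limma 3.58.1 voom, other scaling and filters, all 4 groups in 1 fit, each library left out and the tumour number as a block. GENCODE M21 models and RefSeq promoters (GRCm38.p6) gave the sequences.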

Additional observations from a re-analysis of the deposited data

How the results depend on the processing

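Of the values of named members under the alternatives, 875 kept direction and side of the threshold, 51 changed sign, 27 lost a call and 15 gained one. The lost and gained calls were all between sorted and tumour libraries except H2bc6 in tumours. None of the 51 was called with either sign, the lowest adjusted p under an alternative being 0.522 (edgeR). No histone gene was called for knockdown in sorted libraries, or for the difference of the effects, under any alternative run, and the number called stayed 0 with each library left out, in tumours too. In tumours 1 member (H2bc6, lower) was called with DESeq2, 1 with all 4 groups in 1 fit and 1 with the replicate block. Between sorted and tumour libraries 27 members were called, against 5 with a filter at a mean of 5 CPM, which left 10 to test, 16 in shNC libraries alone and 10 in shFgf21 libraries alone, and 22 to 28 with 1 library left out.

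The sign changes fell on 17 log2 fold changes. For knockdown in sorted libraries H2ac18 was at -1.31 with voom. With 1 library left out H2ac18 ran from -10.16 to 1.53, H1f2 from -0.0144 to 0.15 and H4c8 from -0.61 to 0.12. In tumours H2bc8 was at -0.11 with the replicate block. With 1 library left out H1f0 ran from -0.0049 to 0.12, H2bc8 from -0.0823 to 0.20, H3c4 from -0.29 to 0.0177, H3c14 from -0.85 to 0.12, H4c8 from -0.10 to 0.80 and H4c9 from -0.16 to 0.51. Between sorted and tumour libraries H1f2 was at 0.0001 with median-ratio size factors and DESeq2 and 0.0139 at 5 CPM, H3c4 at 0.0474 in shNC libraries alone and H3c14 at 0.60 in shFgf21 libraries alone. With 1 library left out H1f2 ran from -0.0626 to 0.0353, H3c4 from -0.0931 to 0.0717, H3c14 from -0.42 to 0.13 and H4c9 from -0.31 to 0.0154. For the interaction H2ac6 was at 0.0001 with median-ratio size factors, 0.0175 without a filter and 0.0003 with DESeq2. With 1 library left out H2ac6 ran from -0.25 to 0.16, H1f2 from -0.17 to 0.0569, H2bc4 from -0.22 to 0.073 and H2ac18 from -19.76 to 0.54.

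The median over the members ran from -0.41 to -0.09 for knockdown in sorted libraries, from -0.24 to 0.07 in tumours, from -0.30 to 1.005 between sorted and tumour libraries and from -0.26 to 0.01 for the interaction. It was below 0 in all 11 alternatives in sorted libraries and in 8 of 13 in tumours, and it changed sign in 1 of 18 between sorted and tumour libraries, at 5 CPM, and in 1 of 16 for the interaction. Members took 0.144% of counts in shFgf21 sorted, 0.145% in shNC sorted and 0.219% in shFgf21 tumour libraries when only protein-coding nuclear genes were the total. On the deposited FPKM scale H1f0 was at -0.88 (log2, sorted over tumour).

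Tumour replicate numbers 1 and 2 are shared by shFgf21 and shNC. Deviations of same-numbered libraries correlated at 0.151 and -0.168 over 17327 genes. Pairs with different numbers ran from -0.259 to 0.181. With so few pairs, this check cannot decide whether the numbers pair the samples. The replicate block gave H2bc6 -2.85 (edgeR, adjusted p = 0.00130) and called 131 of all genes.

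Counts over all genes depended on the tool. In sorted libraries 13 genes were called, against 1 without a filter, 246 with DESeq2, 1 with all 4 groups in 1 fit and 0 to 34 with 1 library left out. In tumours 5 were called, against 1 at 5 CPM, 115 with DESeq2, 21 with voom, 26 with all 4 groups and 0 to 8 with 1 library left out. Between sorted and tumour libraries 8490 were called, against 4995 in shNC libraries alone. For the interaction 1 was called, against 4 without a filter, 0 at 5 CPM, 33 with DESeq2, 3 with voom and 0 to 4 with 1 library left out. The cause was not tested. Depth limits members near the limit set by 0 counts.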
